A study of Mus musculus with 9 samples.

Results

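The smooth muscle contractile genes are 34 genes of the layers of smooth muscle in the stomach wall, chosen by name from the proteins of the contractile apparatus, its regulators and the transcription factors that drive them. All 34 were on the array and were tested, out of 21737 genes, and 32 of them gave a signal well above background on all 9 arrays, while Pln and Nkx3-2 did so on 8. Expression was measured in whole stomachs of newborn mice with 1 Agilent array per mouse, 5 from knockout mice labelled C/EBPbeta KO (KO 1 to KO 5) and 4 labelled WT (WT 1 to WT 4). Cebpb encodes C/EBPβ, a transcription factor of the leucine zipper class. The labels' treatment protocol and the design place the mice at birth, whereas the source field calls them old without giving an age, and newborn is used here. Neither the strain nor the part of the gene that was removed is given, and no further allele or agent is named for either group. The values come from the whole organ, so fewer smooth muscle cells and less RNA per cell cannot be told apart.

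Smooth muscle contracts when calcium bound to calmodulin activates myosin light chain kinase, which phosphorylates the regulatory light chain so that myosin pulls on actin filaments, and myosin phosphatase reverses this step. The filaments are tied to dense bodies and membrane plaques and to a network of intermediate filaments. Serum response factor, encoded by Srf, binds the CArG box in the control regions of many of these genes, and its cofactor myocardin, encoded by Myocd, is known to activate them in smooth muscle.

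Of the 34 genes, 30 had a start site in the RefSeq promoter table of build GRCm38.p6, which leaves Actg2, Myh11, Myocd and Tagln without one. A CArG box lay within the window of 250 bases before to 50 bases after a start in 5 of the 30, against 1.806% of the 27025 genes in that table and 1.629% of its 32851 windows. It was searched on both strands in its strict form, CC and GG around letters that are all A or T. Forms with a mismatch were not searched, so a gene without a match can still hold one. The 170 bases before the start of these 5 genes are shown because they carry the element through which the family is known to be controlled, with the CArG box in capitals.
Cnn2, chr10:79988430-79988599, plus strand: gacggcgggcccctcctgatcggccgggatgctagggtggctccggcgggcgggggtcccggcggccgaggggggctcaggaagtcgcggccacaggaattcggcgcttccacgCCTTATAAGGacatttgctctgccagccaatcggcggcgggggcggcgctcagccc
Myl6, chr10:128493010-128493179, minus strand: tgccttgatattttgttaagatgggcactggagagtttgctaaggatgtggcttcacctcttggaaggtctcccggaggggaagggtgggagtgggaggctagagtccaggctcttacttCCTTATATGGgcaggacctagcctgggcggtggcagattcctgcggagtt
Myl9, chr2:156775294-156775463, plus strand: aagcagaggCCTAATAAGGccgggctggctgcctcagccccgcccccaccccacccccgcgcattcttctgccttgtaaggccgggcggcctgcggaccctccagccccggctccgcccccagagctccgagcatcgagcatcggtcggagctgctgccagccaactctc
Dmd, chrX:82948700-82948869, plus strand: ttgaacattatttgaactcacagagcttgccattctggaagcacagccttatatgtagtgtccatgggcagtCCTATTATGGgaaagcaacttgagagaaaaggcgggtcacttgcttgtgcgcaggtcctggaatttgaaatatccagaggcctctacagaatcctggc
Srf, chr17:46556163-46556332, minus strand: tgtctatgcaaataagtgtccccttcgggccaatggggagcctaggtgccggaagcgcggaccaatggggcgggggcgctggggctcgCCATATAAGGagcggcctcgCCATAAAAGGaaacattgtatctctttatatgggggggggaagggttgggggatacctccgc
Srf itself held 2 boxes, whose first bases lay at -82 and -62 from the start, and the first base of the box of Cnn2 lay at -56. Myl6 and Dmd each have a further start in the table whose window held no box. The 8-letter core TTGCNNAA, a form of the site that C/EBP proteins are known to bind, was searched on both strands and lay in the windows of 2 of the 30 genes, Csrp1 and Myl6, against 12.204% of all genes. A match is a description of the letters and not a site.

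None of the 34 genes changed between the genotypes when adjusted over all genes (limma with Benjamini-Hochberg adjustment, 0 of 34 at adjusted p below 0.05), where 46 of 21737 genes, or 0.212%, did (0.133% higher and 0.0782% lower). At an unadjusted p below 0.05 there were 7 of 34, namely 5 lower (Actg2, Flnc, Cnn2, Tagln and Cnn1) and 2 higher (Pcp4 and Pln). Of all genes 8.84% lay there, 3.45% lower and 5.40% higher. The fitted change, the mean of KO minus the mean of WT on the log2 scale, was below 0 for 26 of 34 genes, against 47.0% of all genes. The median over the 34 was -0.20, beside 0.017 over all genes tested. The 34 genes share the same arrays and are not independent, so counts among them are a description and not a test. The KO and WT arrays did not overlap for 4 of the 34, against 3.40% of all genes. In 3 of these the knockout was lower (Actg2, Cnn2 and Flnc; 0.971% of all genes) and in 1 higher (Pln; 2.43% of all genes).

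**Figure D1:**
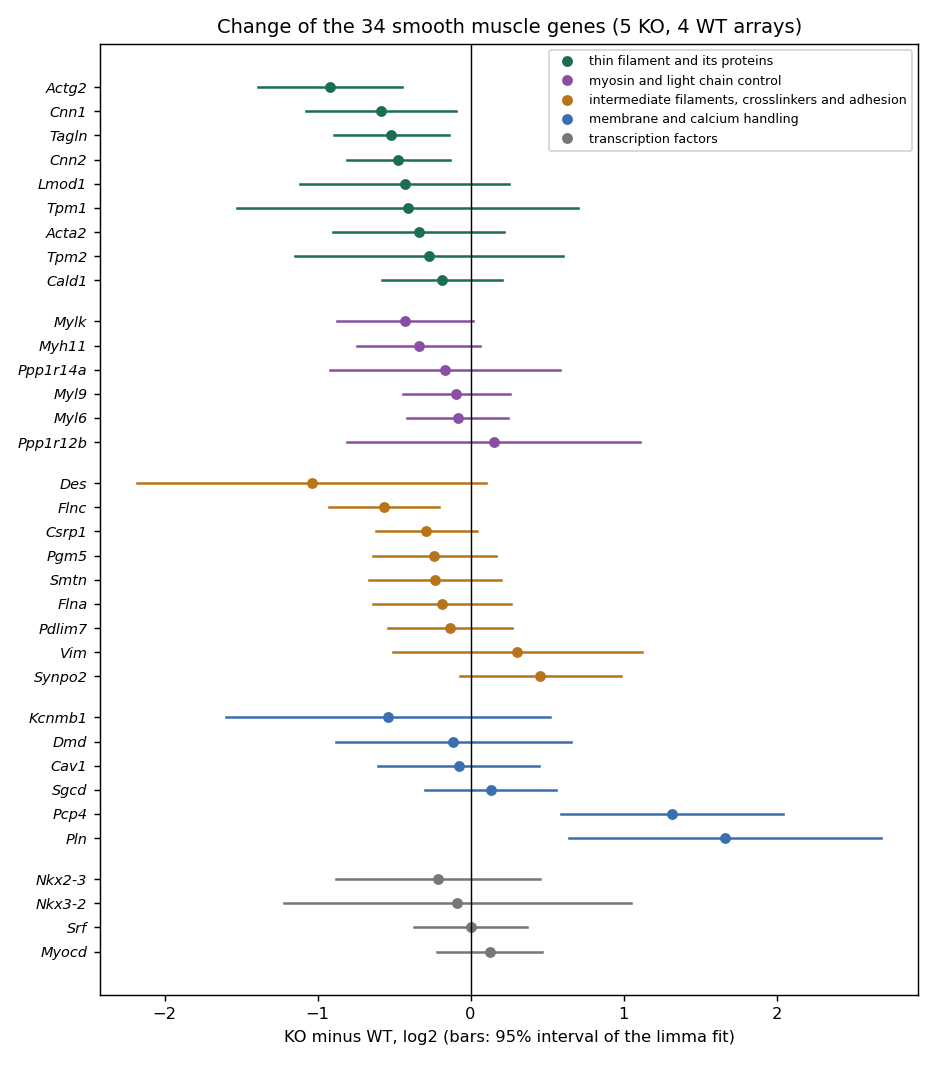
Change of each of the 34 genes between knockout and wild type (x axis, KO minus WT on the log2 scale) in 5 KO and 4 WT arrays, with points for the fitted change, bars for the 95% interval of the limma fit and colours for the role of the gene. Each of the 9 genes of the thin filament lies left of 0, and Pcp4 and Pln lie farthest to the right.

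The targeted gene was checked first. The log2 level of Cebpb, relative to the 75th percentile of the same array as all levels here, ran from -2.65 to -1.37 in the knockout and from 3.19 to 3.94 in wild type (limma adjusted p = 0.000131). The 9 arrays lay on 4 slides. Slide 1 held KO 4, KO 5, WT 3 and WT 4, slide 4 held KO 2, WT 1 and WT 2, and slides 2 and 3 held KO 3 and KO 1 alone. On KO 2, KO 4 and KO 5 the mean log2 level of 3 Y-linked genes was at or below -4.93, while the other 6 arrays lay between -0.18 and 0.22, so sex and genotype are not balanced. On slides 1 and 4 every knockout array was a low one and every wild-type array a high one. Values within these slides therefore cannot tell sex and genotype apart. WT 4 was unlike WT 1 to WT 3 for many of the 34 genes, and values without it are given where they move a result. It was singled out by the levels of these same genes. Where it is the lowest wild-type array, leaving it out raises the wild-type mean by construction. Values without WT 4 are therefore a description and not a separate test.

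The thin filament carries the actins and the proteins that lie along them. Actg2, the enteric gamma actin that is the characteristic actin of visceral smooth muscle, was read on chromosome 6 at 83462904 to 83462963 (mm9). Its log2 level in the knockout, from KO 1 to KO 5, was 8.29, 7.86, 8.22, 8.47 and 8.04. In wild type, from WT 1 to WT 4, it was 9.13, 9.26, 9.46 and 8.53. The groups did not overlap, and KO 4, the highest knockout array, lay just under WT 4. The difference was -0.92 ± 0.21 (SE; 1.89-fold lower; 95% interval -1.39 to -0.45; exact permutation p = 0.00794, the smallest that 5 against 4 arrays allow), which missed the threshold over all genes (limma adjusted p = 0.208). Without WT 4 it was -1.11 ± 0.17 and passed (limma adjusted p = 0.0326). With slide as a block it was -0.98 (limma adjusted p = 0.576) and with mouse number as a block -0.89 (limma adjusted p = 0.728). With a covariate for the Y-linked level it was -0.88 (limma adjusted p = 0.9999). Within slide 1 the difference was -0.74 and within slide 4 it was -1.34, and sex goes with genotype in both. Because the groups did not overlap, no subset of the arrays could give the other direction. The slide values are therefore a description of size and not a separate test of direction. The same holds for Cnn2, Flnc and Pln below.

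Acta2, the alpha smooth muscle actin of vascular and visceral muscle, lay at 8.64, 8.27, 8.85, 9.14 and 8.69 in the knockout arrays and at 9.23, 9.29, 9.37 and 8.34 in WT 1 to WT 4. WT 4 was lower than 4 of the 5 knockout arrays, whereas the other 3 wild-type arrays lay above all of them. The difference was -0.34 ± 0.25 (limma adjusted p = 0.787) over all arrays and -0.58 ± 0.19 without WT 4 (limma adjusted p = 0.206). Within slide 1 it was 0.061 and within slide 4 it was -0.99.

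Calponins and transgelin bind along actin filaments. Cnn2, which encodes the calponin found also outside muscle, was read at 4.04, 3.79, 4.06, 3.79 and 3.57 in KO 1 to KO 5 and at 4.25, 4.36, 4.49 and 4.20 in WT 1 to WT 4. The highest knockout array lay below the lowest wild-type array, and WT 4 was in the range of its group. The difference was -0.47 ± 0.15 (limma adjusted p = 0.403; exact permutation p = 0.0159), with -0.66 within slide 1 and -0.51 within slide 4. A second probe of Cnn2 differed by -0.49, but there WT 4 lay at 2.15, below all 5 knockout arrays.

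Tagln, the gene of transgelin, a marker of differentiated smooth muscle, stood at 8.73, 8.43, 8.70, 8.78 and 8.45 in the knockout arrays and at 9.27, 9.29, 9.27 and 8.71 in WT 1 to WT 4. WT 1 to WT 3 lay close together above every knockout array, and WT 4 lay among the knockout values. The difference was -0.52 ± 0.17 (limma adjusted p = 0.413; exact permutation p = 0.0238), or -0.66 without WT 4 (limma adjusted p = 0.080). Cnn1, the calponin of differentiated smooth muscle, differed by -0.58 ± 0.22 (limma adjusted p = 0.477; exact permutation p = 0.0317), with KO 2 lowest at 7.02 and KO 4 highest of the knockouts at 8.12, between the wild-type values of 8.05 and 8.40.

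For the other 4 thin filament genes single arrays moved the values. Lmod1, which encodes a leiomodin that nucleates actin filaments, differed by -0.43 ± 0.31, Tpm1 by -0.41 ± 0.50, Tpm2 by -0.27 ± 0.39 and Cald1 by -0.19 ± 0.18. Tropomyosins wind along the filament and caldesmon, the product of Cald1, restrains the motor on it. The 95% intervals of these 4 included 0, and that of Tpm1 reached from -1.52 to 0.70. Without WT 4 Tpm1 was at -0.92 and Tpm2 at -0.68, and without WT 1 they were at -0.19 and -0.072. Without KO 2 Lmod1 was at -0.18 and Cald1 at -0.074. On slide 1 Tpm1 differed by 0.66 and on slide 4 by -1.80, so its direction was not shared by the slides. The 6 probes of Tpm1 lay between -0.74 and 0.16. They do not all carry the same transcript accession, and which transcripts they read was not tested.

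**Figure D2:**
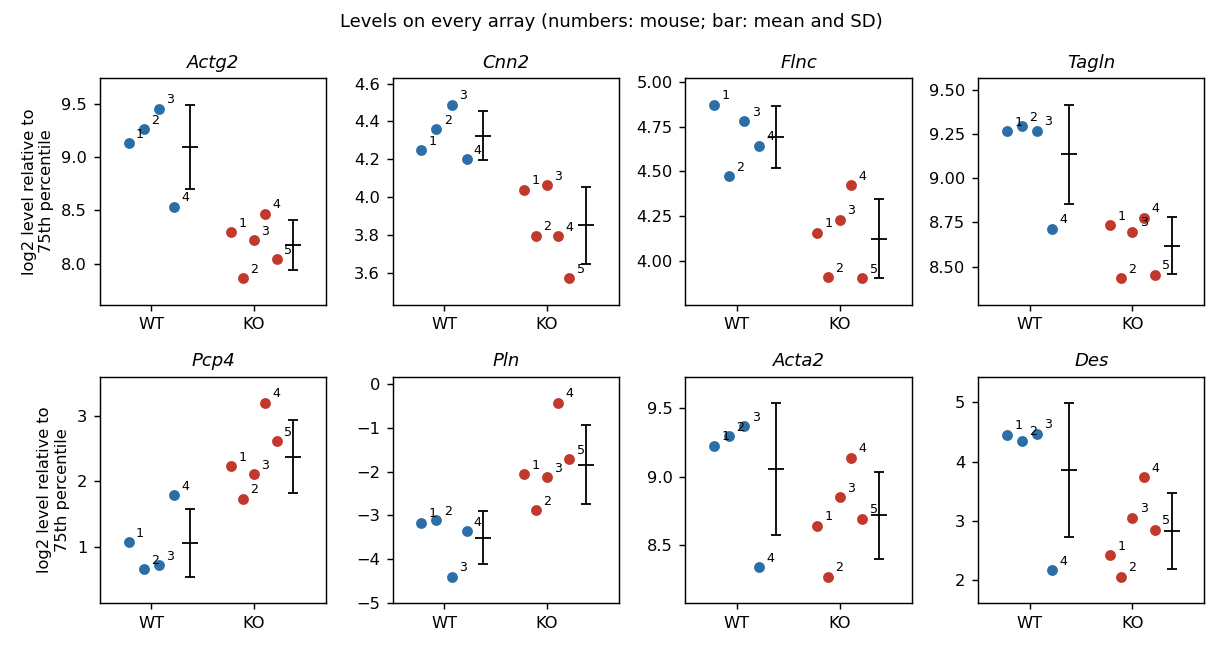
Log2 level relative to the 75th percentile of the array (y axis) of 8 of the genes in wild type (blue) and knockout (red), with the mouse number beside each point and the mean and SD beside each group. WT 4 sits apart from WT 1 to WT 3 for Actg2, Tagln, Acta2 and Des, but within its group for Cnn2 and Flnc.

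The next set holds the myosin motor and its control. Myh11, the smooth muscle myosin heavy chain, was at 5.03, 4.66, 5.01, 5.16 and 4.71 in the knockout arrays. In WT 1 to WT 4 it was at 5.28, 5.44, 5.44 and 4.85. WT 4 again lay among the knockout arrays, and the other 3 above them. The difference was -0.34 ± 0.18 (limma adjusted p = 0.650), and -0.47 ± 0.16 without WT 4 (limma adjusted p = 0.210). Mylk, the light chain kinase gene, differed by -0.43 ± 0.20 (limma adjusted p = 0.582), with WT 4 at 4.51 as the highest wild-type array.

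The regulatory chain gene Myl9 differed by -0.093 ± 0.16 (95% interval -0.44 to 0.26) and the essential chain gene Myl6 by -0.083 ± 0.15 (95% interval -0.41 to 0.25). Ppp1r14a, whose product inhibits myosin phosphatase, differed by -0.17 ± 0.34 (-0.51 without WT 4), and Ppp1r12b, a targeting subunit of that phosphatase, by 0.15 ± 0.43 (0.50 without WT 4). Ppp1r12b was high on KO 1 (-0.0038), KO 2 (-0.24) and WT 4 (-0.017) and lay between -1.77 and -1.22 on the other 6 arrays. Dmd, the dystrophin gene, was likewise highest on WT 4 (0.20) and KO 1 (-0.021), with KO 2 next at -0.59.

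Intermediate filaments and the proteins that anchor them form the third set. Des, the gene of the muscle intermediate filament protein desmin, was at 2.42, 2.05, 3.05, 3.73 and 2.85 in KO 1 to KO 5 and at 4.45, 4.35, 4.47 and 2.16 in WT 1 to WT 4. WT 1 to WT 3 lay above every knockout array and WT 4 below 4 of the 5. The difference of -1.04 ± 0.51 (limma adjusted p = 0.612) became -1.60 ± 0.33 without WT 4 (limma adjusted p = 0.073). It was -0.024 within slide 1, which holds WT 4, and -2.35 within slide 4. Desmin is known also from skeletal and cardiac muscle, whose marker lists are given below.

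Flnc, the filamin of muscle that crosslinks actin, was read at 4.16, 3.91, 4.23, 4.42 and 3.90 in the knockout arrays and at 4.87, 4.47, 4.78 and 4.64 in WT 1 to WT 4. The groups did not overlap and no array stood apart. Its difference was -0.57 ± 0.16 (1.48-fold lower; limma adjusted p = 0.333; exact permutation p = 0.0159), with -0.55 within slide 1 and -0.76 within slide 4. Flna, the widely expressed filamin, differed by -0.19 ± 0.20, by -0.38 without WT 4 and by -0.095 without WT 3.

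The LIM protein gene Csrp1 differed by -0.29 ± 0.15, Pgm5, which encodes a phosphoglucomutase-like protein of adhesion sites, by -0.24 ± 0.18, Smtn, the smoothelin gene, by -0.23 ± 0.19 and Pdlim7 by -0.13 ± 0.18. Without WT 4 Smtn was at -0.37, Pgm5 at -0.35 and Pdlim7 at -0.23. These values are of the brightest probe. Over all arrays the other detected probes differed by -0.53 for Smtn, by -0.37 and -0.40 for Pdlim7 and by -0.16 and 0.083 for Pgm5. Vim, the intermediate filament gene of mesenchymal cells, differed by 0.31 ± 0.37, and by -0.060 without WT 4, where it was lowest at 3.89.

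Synpo2, which encodes an actin bundling protein of the Z disc and of dense bodies, had probes that disagreed. The brightest, used here, differed by 0.46 ± 0.24 (limma adjusted p = 0.639), and a second by 0.024. The third was at -1.91, -2.50, -2.33, -1.93 and -2.67 in KO 1 to KO 5 and at -1.22, -1.24, -0.99 and -0.75 in WT 1 to WT 4, with no overlap. Its difference was -1.22 ± 0.21 (limma adjusted p = 0.0717 when each of 30213 detected probes was tested on its own), and it was singled out after its values were seen. All 3 carry the same transcript accession, and which parts of the gene they read was not tested. Of the 14 genes with more than 1 detected probe, the probes of 7 differed in sign, namely Dmd, Pgm5, Ppp1r12b, Sgcd, Srf, Synpo2 and Tpm1.

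The genes of membrane and calcium handling held both of the larger positive differences. Pcp4 encodes a small protein that binds calmodulin, and its probe lay on chromosome 16 from 96747241 to 96747300 (mm9). It was at 2.23, 1.73, 2.11, 3.19 and 2.61 in KO 1 to KO 5 and at 1.07, 0.66, 0.72 and 1.79 in WT 1 to WT 4. WT 4 was above KO 2 and below the other knockout arrays, and KO 4 was the highest of all. The difference was 1.32 ± 0.32 (2.49-fold higher; 95% interval 0.59 to 2.04; limma adjusted p = 0.260; exact permutation p = 0.0238). It was 1.56 without WT 4 (limma adjusted p = 0.0599), 1.65 within slide 1 and 0.87 within slide 4. Pcp4 is known also from neurons, and the enteric neuron and glia list is given below.

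Pln, the gene of phospholamban, an inhibitor of the calcium pump of the sarcoplasmic reticulum, had its probe on chromosome 10 from 53064944 to 53065003 (mm9). Its level was -2.06, -2.89, -2.13, -0.43 and -1.71 in KO 1 to KO 5 and -3.17, -3.10, -4.40 and -3.36 in WT 1 to WT 4, the signal of WT 3 not being well above background. The groups did not overlap, although KO 2 was only just above WT 2. The difference was 1.66 ± 0.46 (limma adjusted p = 0.302; exact permutation p = 0.0159), and its size is uncertain because the signals were dim, from 12.32 to 39.03 in wild type and from 33.09 to 289.9 in the knockout. It was 2.81 within slide 1, 0.25 within slide 4 and 0.68 with another background correction (limma adjusted p = 0.418).

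Kcnmb1, the beta subunit of the large-conductance potassium channel of smooth muscle, differed by -0.54 ± 0.47, and by -1.07 without WT 4, where it was lowest at -2.38. Cav1, the caveolin gene of membrane caveolae, differed by -0.078 ± 0.24 (-0.29 without WT 4), Dmd by -0.11 ± 0.34 and Sgcd, a sarcoglycan of the dystrophin complex, by 0.13 ± 0.19. None of these 4 passed over all genes, and their 95% intervals included 0.

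The transcription factors come last. Srf was at 2.59, 2.56, 3.08, 2.94 and 2.86 in KO 1 to KO 5 and at 3.08, 2.71, 2.62 and 2.80 in WT 1 to WT 4, with a difference of 0.00073 ± 0.17 (95% interval -0.37 to 0.37). Myocd was at 1.92, 1.57, 1.66, 1.63 and 2.07 in the knockout arrays and at 1.55, 1.61, 1.84 and 1.57 in wild type, a difference of 0.13 ± 0.15 (95% interval -0.22 to 0.47). The groups overlapped throughout for both. Nkx2-3, a homeobox factor of gut mesenchyme, differed by -0.21 ± 0.30, and Nkx3-2, a homeobox factor needed for the pyloric region in mice, by -0.088 ± 0.51. The level of Nkx3-2 was -1.15 on KO 3 and between -3.97 and -2.38 on the other 8 arrays, with KO 2 not well above background.

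**Figure D3:**
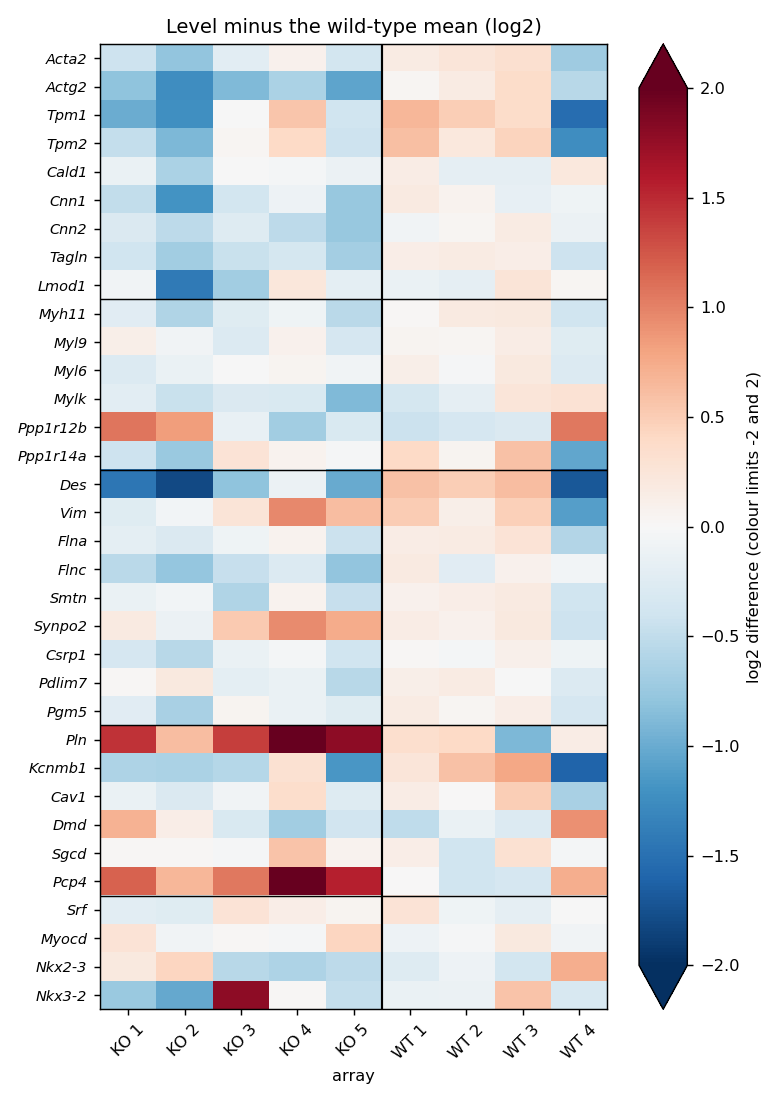
Log2 level of each of the 34 genes minus its wild-type mean, by array, with black lines between the sets of genes and between the genotypes and colours that end at -2 and 2. The thin filament block is blue across KO 1, KO 2 and KO 5 and in the column of WT 4 for the actins and tropomyosins, while Pcp4 and Pln are red in all 5 knockout columns.

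By set, all 9 thin filament genes had a fitted change below 0 (median -0.43), as did 5 of 6 of the myosin set (median -0.13) and 7 of 9 of the intermediate filament and adhesion set (median -0.23). In the membrane and calcium set it was 3 of 6 (median 0.027) and among the transcription factors 2 of 4 (median -0.044). In none of the 5 sets did a gene pass over all genes.

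Within each genotype the arrays differed from each other across many of the 34 genes at once. WT 4 was the lowest wild-type array for 21 of the 34 genes, and WT 3 the highest for 18. KO 2 was the lowest knockout array for 20 and KO 4 the highest for 21. The 75th percentile of the signal was lowest on WT 4 (194.9) and next lowest on KO 2 (244.8). It was 260.8 on WT 3 and 390.1 on KO 4. A part of signal strength in these differences was not tested. The median deviation of the 34 genes from their own group mean was -0.28 on WT 4 and -0.25 on KO 2, against 0.035 and 0.029 over all genes on those arrays, and 0.26 on KO 4 against -0.054. Without WT 4 the median change of the 34 genes was -0.32 and 26 were again below 0. Actg2 was then the 1 gene that passed (0.727% of all genes did), 14 lay at an unadjusted p below 0.05 (16.2% of all genes), and 9 did not overlap and were lower in the knockout (6.18% of all genes). Pcp4 and Pln then did not overlap and were higher (5.93% of all genes). The 9 that were lower were Acta2, Actg2, Cnn2, Tagln, Myh11, Des, Flna, Flnc and Smtn. Without KO 2 instead, the median change of the 34 genes was -0.17, with 26 below 0, against 48.1% of all genes. None then passed, and 8 lay at an unadjusted p below 0.05 (8.48% of all genes).

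**Figure D4:**
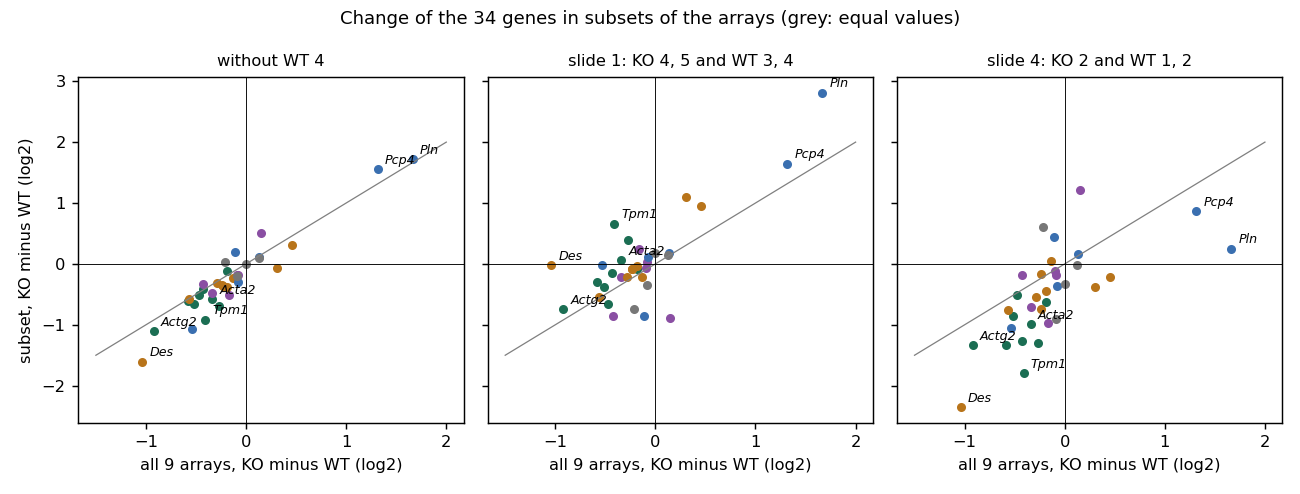
Change of the 34 genes over all 9 arrays (x axis) against their change in a subset of the arrays (y axis), both KO minus WT on the log2 scale, with a grey line where the values are equal and colours by set as in the plot of changes. Des moves from -1.04 to -1.60 without WT 4, to -0.024 within slide 1 and to -2.35 within slide 4, whereas Actg2 stays between -1.34 and -0.74.

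The same values were read within slides. Within slide 1 the median change of the 34 genes was -0.077 with 21 below 0, against 50.3% of all genes. Within slide 4, which holds a single knockout array, it was -0.47 with 27 below 0, against 44.2% of all genes. With slide as a block it was -0.29, and 28 were below 0, against 48.3% of all genes. Slides 2 and 3 hold knockout arrays alone and give no value. The fit with slide as a block thus rests on slides 1 and 4, where sex goes with genotype.

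Genes of contraction outside the 34 were read from 8 further lists. Of 134 genes tested, 1 rose, none fell and 77 had a fitted change above 0 (median 0.089). Of all 21737 genes, 0.133% rose and 11512 had a change above 0, which is the background for the counts by list below. The gene that rose was Foxf2, a forkhead factor of gut mesenchyme, by 1.21 ± 0.19 (limma adjusted p = 0.0485). Its adjusted p was above the threshold with slide as a block (0.333) and without any one of 8 of the 9 arrays. In the list of cofactors of SRF and mesenchymal regulators, to which it belongs, 19 of 24 genes were above 0.

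In the receptor and G protein list 12 of 18 genes were above 0. Rgs2, which shortens signalling through G proteins, was there at 0.97 ± 0.24 (limma adjusted p = 0.265). The guanylate cyclase gene Gucy1a2 of the relaxation pathway, with 7 of 9 genes above 0, was at 0.58 ± 0.15 (limma adjusted p = 0.279). Itpr1, a calcium release channel, was at 0.42 ± 0.13 in a list with 10 of 17 above 0. Sntb2, a syntrophin of the dystrophin complex, was at 0.57 ± 0.14 with 7 of 16 above 0.

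Pdlim1 was at 0.49 ± 0.16 in the list of dense plaque genes, where 13 of 29 were above 0. All 6 small heat shock protein genes were below 0 (median -0.38), with Hspb6 at -0.46 ± 0.26 (limma adjusted p = 0.682), and the mean of that list on WT 4 was -1.08 relative to the wild-type mean.

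Other cells of the stomach wall, and muscle that a dissection can bring along, moved between the arrays too. Relative to its wild-type mean, the mean log2 level of 11 of 16 skeletal muscle genes tested ran from -1.01 to 0.38 in the knockout and from -1.75 on WT 4 to 0.96 on WT 3. Myh1, Myh2, Myh4, Mylpf and Mybpc2 did not reach background on enough arrays to be tested. For 9 of 10 cardiac muscle genes it ran from -0.64 to -0.20 in the knockout and from -0.80 on WT 4 to 0.45 in wild type, and Nppa, the atrial natriuretic peptide gene, fell by 1.58 ± 0.17 (limma adjusted p = 0.0107). Its adjusted p was 0.195 with slide as a block, 0.197 with mouse number as a block and 0.133 with a covariate for the Y-linked level, and its change was -0.81 with another background correction.

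Forestomach squamous genes, 13 of 13 tested, ran from -1.10 to 0.093 in the knockout and from -1.68 on WT 4 to 0.66, and fibroblast genes, 10 of 10, from 0.28 to 0.89 and from -0.90 on WT 4 to 0.43. Glandular epithelium, 12 of 12, was at 0.48 to 1.04 in the knockout and at -0.23 to 0.41 in wild type, with WT 4 highest, and Gkn2, a gene of gastric surface cells, rose by 1.79 ± 0.25 (limma adjusted p = 0.0254). Its adjusted p was 0.293 with slide as a block, 0.197 with mouse number as a block, 0.223 with a covariate for the Y-linked level and 0.0623 with no filter. Without KO 3, KO 4, WT 1, WT 2 or WT 3 it lay between 0.0716 and 0.106. The enteric neuron and glia list, 12 of 12, ran from -0.50 to 0.51 in the knockout and from -0.22 to 0.11 in wild type. The list of interstitial cells of Cajal, 6 of 6, ran from 0.12 to 0.57 and from -0.54 on WT 4 to 0.30. The pericyte list, 7 of 7, ran from 0.0046 to 0.41 and from -0.37 to 0.19, and the endothelial list, 10 of 10, from -0.031 to 0.39 and from -0.34 to 0.16, with WT 4 lowest for both. The mesothelial list, 6 of 6, ran from -0.63 to 0.78 and from -1.14 on WT 4 to 0.53, and that of blood, 5 of 7, from -0.36 to 0.46 and from -0.036 to 0.041. The part of these cells in the differences of the 34 genes was not tested.

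**Figure D5:**
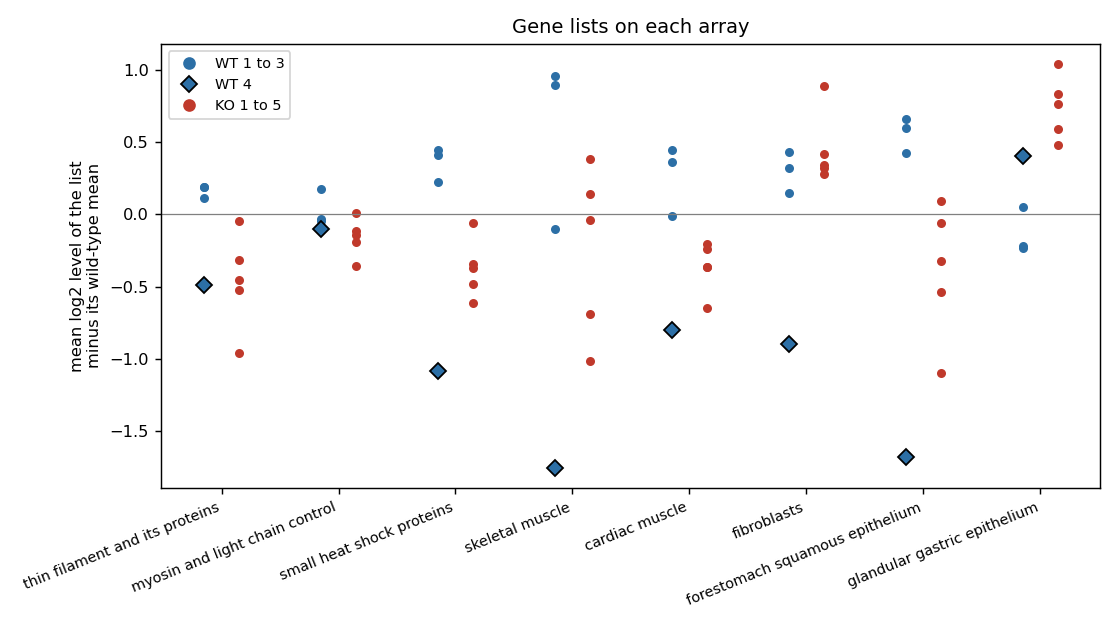
Mean log2 level of 8 gene lists on each array minus the wild-type mean of the list (y axis), with wild type in blue, WT 4 as an outlined diamond and knockout in red. WT 4 lies at -0.49 for the thin filament genes and at -1.75 for skeletal muscle, -0.90 for fibroblasts and -1.68 for squamous epithelium, and above the other wild-type arrays for glandular epithelium at 0.41.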

How the data were processed

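Spot intensity was deposited by the authors from an Agilent scanner, made with Feature Extraction 10.5.1.1 and protocol GE1_107_Sep09 on a design annotated on mm9, per the file headers; the submitters' processing notes name version 9.1. The processed signal intensity was spatially and multiplicatively detrended, with surrogates for dim spots, per the file headers. The authors also deposited a table of log2 values, whose differences between arrays followed log2 of the signal, so its scale and direction are known and its centring is not. Its column medians in KO 1 to KO 5 were 0.0436, 0.217, -0.124, 0.0347 and -0.137. In WT 1 to WT 4 they were -0.279, -0.161, 0.224 and 0.382.

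Of 62976 spots per array, 3671 controls and any outlier spots were dropped, and spots of 1 probe averaged, giving 55681 probes. Between 50.9% and 57.2% of spots were well above background and 0 were saturated. Each array's 75th percentile (194.9 to 408.5) was subtracted after log2. Probes detected on at least 4 of 9 arrays (30213) were kept, with the brightest probe per gene. Names were updated through RefSeq accessions (26756 probes matched). KO was compared with WT in limma 3.58.1 (R 4.3.3), Benjamini-Hochberg over 21737 genes. SE is the moderated standard error, and the exact permutation test is two-sided over every split of the arrays. The number of arrays limits the precision, and the labels name separate mice. The steps were tested on simulated data.

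The members and lists were chosen with earlier results of these data known. All 34 are named; values on every array are given for the 6 with the smallest p, those whose groups do not overlap, and Acta2, Myh11, Des, Srf and Myocd; of each further list the gene with the smallest p is named, except 1 list that is not reported here. Alternatives varied the background, scaling, filter, probe choice, slide, mouse number, Y-linked level, array weights and arrays left out.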

Additional observations from a re-analysis of the deposited data

Results flagged for a closer look

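In 9 of 68 groups of values (34 genes in 2 genotypes), the highest or lowest array stood apart from the others by Dixon's test at the 95% level, which chance alone flags in about 1 group in 20. WT 4 was the array concerned in 7 of the 9. The groups share the same arrays and are not independent, so the count of 9 cannot be judged against that rate. It was the lowest wild-type array for Acta2 (8.34 against 9.23 for the next), Tpm1 (3.91 against 5.80), Tagln (8.71 against 9.27), Des (2.16 against 4.35), Flna (7.23 against 7.96) and Smtn (4.92 against 5.40), and the highest for Ppp1r12b (-0.017 against -1.35). In the knockout, KO 2 was lowest for Cald1 (1.45 against 1.95) and KO 4 highest for Sgcd (-1.81 against -2.32). These are log2 levels relative to the 75th percentile of the array.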

How the results depend on the processing

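Over 24 alternatives, 18 of the 34 genes never changed direction. Among them were Actg2 (-1.34 to -0.74), Pcp4 (0.87 to 1.65), Flnc (-0.76 to -0.44) and Cnn2 (-0.66 to -0.27). The groups did not overlap for Actg2, Flnc and Cnn2. For these genes the alternatives that left out arrays or read within a slide could not change direction. Of 814 values of single genes, 756 kept direction and side of the threshold and 5 passed it anew. These were Actg2 (-1.07), Tagln (-0.65), Des (-1.46) and Pcp4 (1.58) with array weights, and Actg2 without WT 4. The weights were lowest for WT 4 (0.21) and highest for WT 2 (3.92), and with them 562 of 21737 genes passed. Why these values passed was not tested.

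The count of genes that changed, 46, was 25 with no filter, 5 with slide as a block, 2 within slide 1, 5 with a covariate for the Y-linked level, 562 with array weights and 156 without WT 4 and KO 5. Leaving out 1 array gave 7 (without WT 3) to 158 (without WT 4), with 28 without KO 2, 19 without KO 3, 23 without KO 4, 11 without WT 1 and 13 without WT 2. The count among the 34 genes, 0, was 4 with array weights and 0 to 1 leaving out 1 array. The 1 gene of the further lists became 0 with normexp background, median scaling, no filter, slide as a block, within slide 1 or 4, the Y-linked level or without WT 4 and KO 5, 8 with array weights, and 0 to 2 leaving out 1 array. The median change of the 34 genes was -0.47 within slide 4, and -0.32 to -0.16 leaving out 1 array. Testing every detected probe on its own, chosen after seeing the data, gave 0 of the 34.

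Mouse numbers share no stated source, and the deviations of same-numbered arrays correlated at -0.31, 0.12, 0.15 and -0.48. With mouse number as a replicate block, 4 genes changed, 0 of the 34 and 0 of the further lists.

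Reversed directions, none past the threshold, were as follows. With normexp background Sgcd was at -0.041. Srf was at -0.052 with the percentile of probes detected on all arrays and -0.041 with quantile normalization. With the mean of all probes Ppp1r12b was at -0.17, Synpo2 at -0.25 and Srf at -0.060, and with slide as a block Ppp1r12b at -0.042 and Srf at -0.021. Within slide 4 Vim was at -0.37, Synpo2 -0.22, Pdlim7 0.052, Dmd 0.45, Srf -0.33, Myocd -0.010 and Nkx2-3 0.61. Within slide 1 Acta2 was at 0.061, Tpm1 0.66, Tpm2 0.40, Myl6 0.038, Ppp1r12b -0.88, Ppp1r14a 0.25 and Cav1 0.12. With the replicate block Srf was at -0.013 and Nkx3-2 at 0.0073. With the Y-linked level Vim was at -0.068, Dmd 0.25, Sgcd -0.0049 and Nkx3-2 0.46, and with array weights Dmd 0.041 and Nkx3-2 0.13. Without WT 4 and KO 5 Vim was at -0.14, Dmd 0.26, Srf -0.014 and Nkx2-3 0.10. Leaving out 1 array, Ppp1r12b ranged from -0.078 to 0.50, Nkx3-2 from -0.56 to 0.15, Srf from -0.067 to 0.092, Dmd from -0.31 to 0.19, Sgcd from -0.0029 to 0.24, Ppp1r14a from -0.51 to 0.027, Cav1 from -0.29 to 0.088, Vim from -0.060 to 0.48 and Nkx2-3 from -0.38 to 0.027.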
